A study of Homo sapiens with 56 samples.

Results

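The set described here is 7 transcripts: the constant regions of the immunoglobulin heavy chains mu and delta (IGHM, IGHD), of the kappa light chain (IGKC), of lambda light chains (IGLC1, IGLC2, IGLC3), and the joining chain (JCHAIN). They were chosen by gene symbol, and all 7 were among the 21595 named genes of the deposited expression table. The values come from 56 RNA-seq libraries of mantle cell lymphoma cell lines. This lymphoma is a tumour of mature B cells, and CCND1, the cyclin whose gene is characteristically translocated to the heavy chain locus in it, was found in every line.

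MINO-P and JEKO-1 gave 15 libraries each, and MINO-VR and Z138 gave 13 each. The suffixes P and VR are not explained in the sources used here. Each line had untreated libraries, labelled CON, and libraries labelled with BTZ, IBR, CLF, YM155 or S63845 or with a pair of these codes, as in BTZ_CLF. The design text speaks of YM155 and S63845 given alone and together with a PI and a BTKi. The labels leave these codes, and CLF, unexpanded, and doses and times were not given in the sources used here. No allele or genotype was labelled. Of the 37 combinations of line and treatment, 22 had 1 library, 11 had 2 and 4 had 3. The labels do not say whether libraries of 1 combination came from separate cultures, so p-values measure the spread between these libraries, which may be technical.

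A B cell joins 1 variable segment to shorter gene segments at the heavy chain locus and at 1 of the light chain loci. Kappa is joined first, and lambda if kappa fails. Splicing of the transcript then adds the constant region. Naive-like B cells, the kind mantle cell lymphoma resembles, splice the same heavy chain transcript to mu or to delta and so carry IgM and IgD on the surface. JCHAIN links IgM or IgA units into polymers and is characteristic of antibody-secreting cells. A value per gene does not separate the membrane form of a heavy chain from the secreted form.

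Depth, recovered from the steps between low values, was 5.52 to 21.6 M reads per library. Levels are given as CPM, reads per M reads of a library, and 3 reads, the detection floor, were worth 0.139 to 0.543 CPM. Mitochondrial transcripts held 1.91% to 80.5% of a library, and the 6 libraries above 50% were all JEKO-1: BTZ replicates 1 and 2, and both replicates of BTZ_CLF and of IBR_CLF. The 7 markers of mantle cell lymphoma B cells were all found, except that CD5 stayed under 1 CPM in every Z138 library. Summed markers of T cells, monocytes and erythroid cells reached 40.9, 25.8 and 10.9 CPM at most. Fibroblast markers reached 71.9 CPM in Z138, all of it from COL1A1, with DCN at 0 there. Plasma cell markers, which B cell lines can share, summed to 24.9 to 614 CPM. In bulk RNA, fewer cells and less RNA per cell cannot be told apart.

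The lambda constant genes are near copies of each other, which limits how their values can be read. The stretches below are the first 200 bases of each annotated transcript, 5′ to 3′ on the coding strand in GRCh38, shown because every lambda result rests on telling them apart. Capitals mark the 14 positions at which the 3 lambda copies are not all alike. IGLC1 is at chr22:22895375-22895574, IGLC2 at chr22:22900976-22901175 and IGLC3 at chr22:22906342-22906541, each in the single exon of its gene on the plus strand. IGKC, at chr2:88857484-88857683 in its single exon on the minus strand, is added in lower case for contrast.
IGLC1: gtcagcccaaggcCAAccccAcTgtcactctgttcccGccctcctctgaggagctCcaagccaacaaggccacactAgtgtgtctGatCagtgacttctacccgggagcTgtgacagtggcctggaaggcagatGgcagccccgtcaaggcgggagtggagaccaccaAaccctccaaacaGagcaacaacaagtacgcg
IGLC2: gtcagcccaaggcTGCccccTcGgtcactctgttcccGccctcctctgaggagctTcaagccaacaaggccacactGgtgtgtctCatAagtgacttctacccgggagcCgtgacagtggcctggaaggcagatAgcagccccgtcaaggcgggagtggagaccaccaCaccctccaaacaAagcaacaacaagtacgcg
IGLC3: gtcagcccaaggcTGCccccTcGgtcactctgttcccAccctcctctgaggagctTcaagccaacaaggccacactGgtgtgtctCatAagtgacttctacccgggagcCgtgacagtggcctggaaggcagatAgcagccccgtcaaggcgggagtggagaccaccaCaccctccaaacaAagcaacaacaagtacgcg
IGKC: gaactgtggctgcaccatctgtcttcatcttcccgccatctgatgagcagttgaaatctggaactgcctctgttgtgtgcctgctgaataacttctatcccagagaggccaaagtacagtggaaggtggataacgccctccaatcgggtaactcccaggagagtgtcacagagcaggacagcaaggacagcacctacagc
In this stretch IGLC2 and IGLC3 differed at 1 position, and IGLC1 and IGLC2 at 13. Over the 317 coding bases of the annotated transcripts, IGLC2 and IGLC3 were 99.1% identical with an identical run of 173 bases, longer than the 150-base reads. IGLC1 was identical to IGLC2 at 302 of these bases and to IGLC3 at 301. All 317 bases of IGLC1 also lie inside an annotated transcript of IGLL5, an immunoglobulin lambda-like gene whose span in the table covers IGLC1. How the authors' counting split reads between these copies was not given in the sources used here, so values of single lambda genes are uncertain. The longest run that the IGKC stretch shared with a lambda copy was 9 bases.

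Light chain constant transcripts differed between JEKO-1, Z138 and the MINO lines, which were alike. Light chain levels were compared per kilobase of exon, as kappa in percent of IGKC plus IGLC1, IGLC2 and IGLC3. Kappa made up 0.0548% ± 0.190 in MINO-P (SD, n = 13 samples), 0.0152% ± 0.0226 in MINO-VR (n = 11), 93.2% ± 4.82 in JEKO-1 (n = 11) and 33.5% ± 14.9 in Z138 (n = 13). A sample here is 1 library, or the mean of 2 MINO or JEKO-1 libraries whose names differ by a final letter a. Kappa was under 1% in 15 of 15 MINO-P and 13 of 13 MINO-VR libraries and over 50% in 15 of 15 JEKO-1 libraries, the highest MINO share being 0.686% in MINO-P BTZ and the lowest JEKO-1 share 84.4% in BTZ replicate 3. Z138 carried both, from 18.1% to 62.8% kappa, and was over 50% in 2 of 13 libraries, YM155 and IBR_YM155. The most IGKC reads in a MINO library were 120 in MINO-P BTZ, then 36 in MINO-VR CON and 27 in MINO-VR CLF, and 4 others had 10 or fewer. IGKC was listed at 0 in 12 of 15 MINO-P and 9 of 13 MINO-VR libraries.

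**Figure D1:**
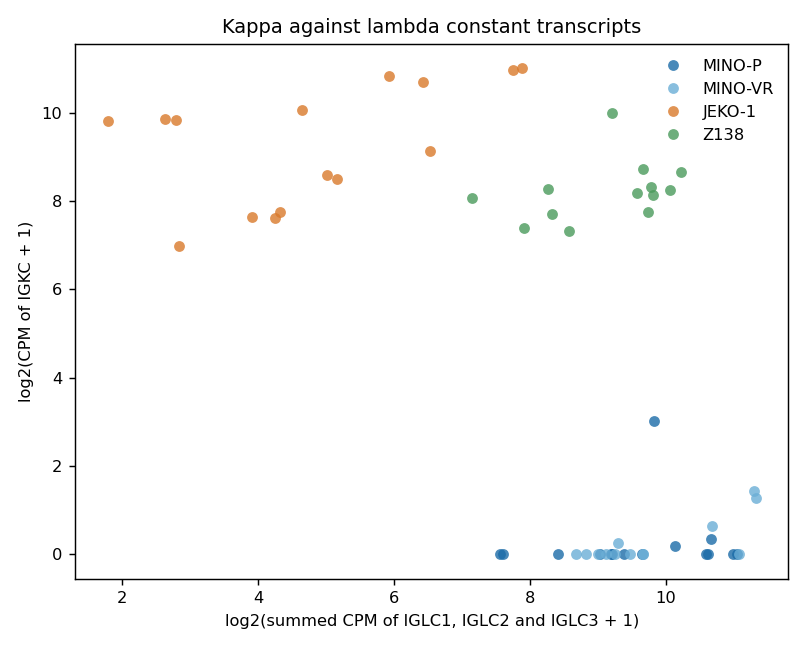
IGKC (log2(CPM + 1), vertical axis) against the summed lambda genes IGLC1, IGLC2 and IGLC3 (log2 of summed CPM + 1, horizontal axis), 1 point per library, coloured by line. The MINO libraries lie along the bottom, JEKO-1 at the upper left to middle, and Z138 at the upper right with both chains.

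The variable segments also set JEKO-1, Z138 and the MINO lines apart. In MINO-P the highest of the 17 IGLV segments in the table was IGLV3-19 (chr22:22720623-22721146), at 124 to 1732 CPM, and in MINO-VR it was the same segment, at 314 to 2208 CPM. In JEKO-1 the leading IGKV segment was IGKV3-20 (chr2:89142574-89143161), at 17.1 to 1509 CPM, and the leading IGLV segment, IGLV1-47, had a mean of 0.311 CPM. In Z138 the leading IGLV segment was IGLV1-51 (chr22:22322472-22322970), at 101 to 1089 CPM. Heavy chain segments also differed: IGHV3-21 led in both MINO cultures (means 195 and 175 CPM), IGHV2-70 in JEKO-1 (mean 246 CPM) and IGHV1-2 in Z138 (mean 10.4 CPM). Among the 3 light chain segments named, each of the 56 libraries had the segment named for its line as the highest. The same held for the 3 heavy chain segments. The segments were picked by their means over these same libraries, so this describes the libraries and is not a separate check of the lines. MINO-P and MINO-VR shared their segments and are not told apart by them.

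Z138 had IGKC without a matching variable segment among the 20 IGKV segments in the table. It had IGKC at 159 to 1017 CPM, while its leading IGKV segment, IGKV3-20, stayed at or below 0.833 CPM. JEKO-1, with IGKC at 125 to 2053 CPM, had both. In JEKO-1 BTZ replicate 3, however, IGKV3-20 was 17.1 CPM beside 563 of IGKC. In BTZ replicates 1 and 2 it was 143 and 182 CPM beside 198 and 196. Lambda in JEKO-1 was like kappa in Z138: IGLC2 reached 143 CPM in JEKO-1, while IGLV1-47 reached 1.95 CPM.

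IGHM (chr14:105851705-105856219, minus strand), the mu heavy chain of IgM, had the highest CPM of the 7 members in 56 of 56 libraries. Its CPM had a lowest, median and highest value of 873, 2995 and 5806 in MINO-P, 1000.4, 2119 and 4966 in MINO-VR, 454, 1578 and 4625 in JEKO-1, and 246, 2015 and 3768 in Z138. These ranges overlapped between all 4 lines. IGHD (chr14:105836765-105845678, minus strand), the delta chain of IgD, ran far lower: medians of 38.1 CPM in MINO-P, 29.1 in MINO-VR, 10.4 in JEKO-1 and 78.5 in Z138. Per kilobase of exon the median of IGHM was 1601 CPM and that of IGHD 22.3 CPM in MINO-P, and 1077 and 46.0 CPM in Z138. Per kilobase, the light chain was at or above IGHM in some lines: the median of IGKC was 1704 CPM against 843 for IGHM in JEKO-1, and that of IGLC1 was 1132 against 1077 in Z138.

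Other heavy chain constant genes were measured too. IGHG3, a gamma chain gene of switched antibodies, was at 124 to 1486 CPM in MINO-P, 80.5 to 919 in MINO-VR and 59.7 to 403 in JEKO-1, while in Z138 it was at most 0.345 CPM, with 11 of 13 libraries at or under 3 reads. IGHA1 had medians of 19.2 CPM in MINO-P, 43.2 in MINO-VR, 6.88 in JEKO-1 and 0.359 in Z138. The gamma genes are near copies of each other, so the split between them is uncertain. IGLL1, part of the surrogate light chain of B cell precursors, had medians of 245 CPM in Z138, 1.13 in MINO-P, 0.890 in MINO-VR and 0 in JEKO-1. A single MINO-P library, S63845 replicate 2, reached 162 CPM of IGLL1.

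**Figure D2:**
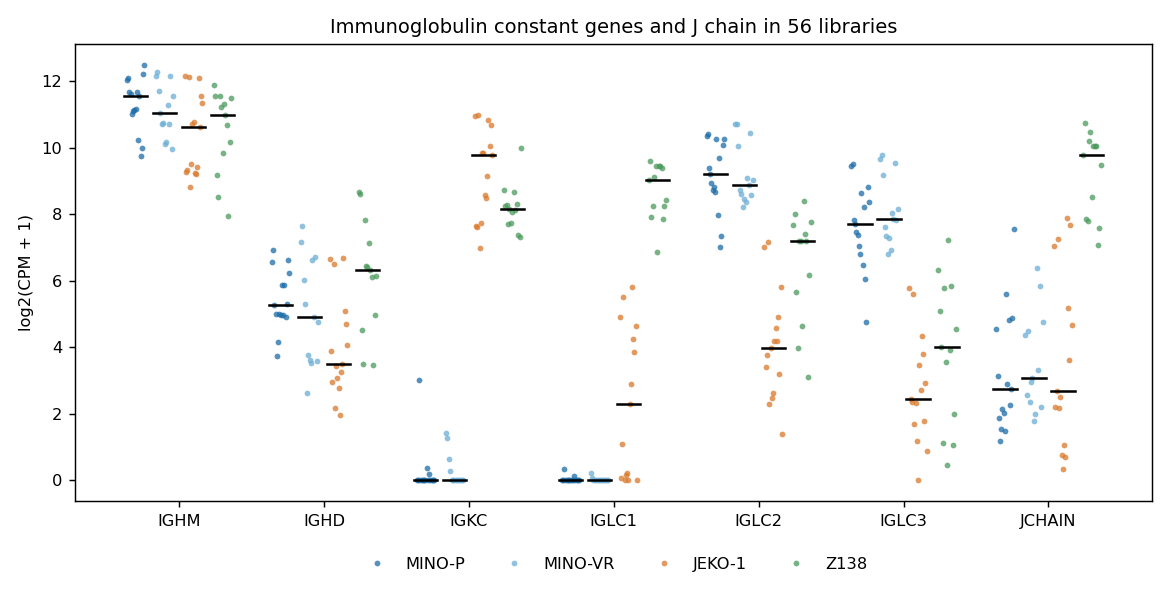
log2(CPM + 1) (vertical axis) of the 7 transcripts (horizontal axis), 1 point per library, coloured by line, with the median of each line as a black bar. IGHM is high in all 4 lines, while IGKC, the lambda genes and JCHAIN separate the lines.

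Differences between lines were tested with limma on log2(CPM + 1), averaged over the treatments both lines had in the same library series, with Benjamini-Hochberg adjustment over 16498 genes. Between JEKO-1 and Z138, 5 of the 7 members differed, where 46.2% of all genes did. JEKO-1 was higher in IGKC, by 1.90 (SE 0.22, adjusted p = 4.3e-06), and lower in IGLC1, with a difference of -5.11 (SE 0.48, adjusted p = 4.5e-07), in IGLC2 (-1.63), in IGHD (-1.45) and in JCHAIN (-4.28, SE 0.73, adjusted p = 0.00020). IGHM and IGLC3 did not pass the threshold in this comparison (0.52 and -0.29), but IGLC3 passed with a block for the letter that ends some Z138 library names, described below.

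MINO-P, almost without IGKC, stood apart from both. JEKO-1 differed from MINO-P in 4 members (19.2% of all genes called): IGKC 9.67 and IGLC1 2.77 higher, IGLC2 -5.78 and IGLC3 -5.87. Z138 differed from MINO-P in 6 (23.9% of all genes called): IGKC 8.37, IGLC1 8.29 and JCHAIN 4.94 higher, IGHM -1.22, IGLC2 -3.23 and IGLC3 -4.38. The IGHM call (adjusted p = 0.0351) was lost under 8 of 25 alternatives: with the Z138 letter as a block (-0.78, adjusted p = 0.199), with no filter, and without MINO-P IBR replicate 3, S63845 replicate 2 or YM155, or Z138 IBR replicate 2, S63845 replicate 2 or YM155 (-1.18 to -1.06). The IGLC1 call of JEKO-1 was lost without JEKO-1 S63845 (2.17, adjusted p = 0.0916). The IGKC and IGLC1 differences against MINO-P rest on values at or near 0 there and depend on the pseudocount of 1, so they are not folds. Between MINO-VR and MINO-P no member passed the threshold in limma, with 3.24% of all genes called. At an unadjusted p under 0.05 it was 0 of 7 as well, against 13.6% of all genes. Of those 7 differences IGLC3 was the largest, at 0.57 with a 95% interval of ± 1.33. With mitochondrial genes left out, the median of all genes moved from -0.20 to 0.03 between JEKO-1 and Z138, and calls over all genes from 2746 higher and 4880 lower to 4100 and 3467. Between JEKO-1 and MINO-P they moved from 1200 higher and 1971 lower to 1973 and 1285. The count of member calls in each comparison stayed as given under this and the size factor scaling. Differences of MINO-VR from JEKO-1 and Z138 were not tested.

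The lambda genes in use differed by line. IGLC2 was the leading lambda gene in the MINO cultures, with medians of 591 CPM in MINO-P and 476 in MINO-VR, and IGLC3 came next with 208 and 232 CPM. IGLC1 was listed at 0 in 13 of 15 MINO-P and 11 of 13 MINO-VR libraries, and never exceeded 0.263 CPM in them. In Z138 IGLC1 led with a median of 521 CPM. IGLL5, which holds the whole of IGLC1, had a median of 385 CPM, or 288 per kilobase against 1132 for IGLC1. IGLC2 followed with 147 CPM and IGLC3 with 15.1 CPM.

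Within Z138 the split between the 2 near-identical copies moved with the library's name in the treatments that had both kinds of name. Of the 5 treatments with 1 library whose name ends in A and 1 whose name does not, IGLC3 was 7.34% to 14.3% of IGLC2 in the libraries with the letter and 30.5% to 43.8% in those without it, lower with the letter in 5 of 5. Among Z138 treatments with 1 library, BTZ (4.26%) and IBR_YM155 (10.2%), without the letter, were low too, as was YM155 (1.60%), with it. The labels do not say what the letter marks. With the letter as a block in the model, IGLC3 was -1.74 in JEKO-1 minus Z138 and passed (limma adjusted p = 0.00709).

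JCHAIN (chr4:70655541-70681818, minus strand) was highest in Z138, at 133 to 1714 CPM with a median of 890. The other lines had medians of 5.69 (MINO-P), 7.47 (MINO-VR) and 5.43 CPM (JEKO-1). Single libraries stood far above these medians: JEKO-1 BTZ replicate 3 with 236 CPM, JEKO-1 S63845 with 203 and MINO-P S63845 replicate 2 with 187. JEKO-1 BTZ replicate 3 also had the highest IGLC1 of its line (55.1 CPM against 0.0505 and 1.13 in the other BTZ libraries) and 9.92% mitochondrial transcripts against 67.6% and 67.5%.

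BTZ against CON could be compared in all 4 lines within the same library series. IGHD was lower in BTZ in every line, and it was the 1 member that fell past the threshold. Its CPM was 94.4 in CON and 38.1 in BTZ in MINO-P, and 143 and 64.5 in MINO-VR. In JEKO-1 it was 100.4 in CON and 13.9, 6.70 and 10.4 in BTZ. In Z138 it was 406 and 389 in CON and 30.2 in BTZ. Every BTZ library of a line lay below every CON library of that line. In each line CON or BTZ was 1 library, and the share of all genes so separated was not counted. Averaged over the lines the difference was -2.33 on the log2(CPM + 1) scale (SE 0.58, limma adjusted p = 0.0165). Among all genes 11.7% were called lower, so 1 of 7 members is near the background, and the median of all genes was -0.35.

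IGHM had 4208 CPM in CON and 3295 in BTZ in MINO-P, and 4592 and 3389 in MINO-VR. In JEKO-1 it had 4625 in CON and 621, 649 and 687 in BTZ, and in Z138 3768 and 3011 in CON and 1150 in BTZ. No BTZ library overlapped CON of its line, the share of all genes doing so again not counted. The mean difference, -1.29 (SE 0.48, limma adjusted p = 0.0886), missed the threshold. The other members had differences of -1.61 (IGLC2), -2.06 (IGLC3), -0.66 (IGLC1), -1.78 (JCHAIN) and -0.38 (IGKC), none past it. At an unadjusted p under 0.05 the count was 4 of 7 (IGHM, IGHD, IGLC2 and IGLC3), against 28.6% of all genes. Scaled without mitochondrial genes the IGHD difference was -2.11 and still passed. With median-of-ratios size factors it was -1.94 (adjusted p = 0.0572), and without JEKO-1 CON it was -2.04 (adjusted p = 0.107) and without Z138 BTZ -1.88 (adjusted p = 0.102). IGKC was -1.51 and called without MINO-P BTZ or MINO-P CON (adjusted p = 0.0186 and 0.0182), and IGLC1 was -1.32 and called without JEKO-1 BTZ replicate 3 (adjusted p = 0.0103). JEKO-1 CON, Z138 BTZ, MINO-P BTZ and MINO-P CON were each alone in their group. Leaving 1 of them out removed its line from the average. Over all genes, 255 were called higher and 1935 lower as deposited, 354 and 1072 without mitochondrial genes and 552 and 838 with size factors, the median moving to -0.18 and -0.08.

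Within JEKO-1, 3 members were lower in BTZ than in CON past the threshold, where 18.8% of all genes were called lower: IGHM -2.81 (SE 0.89, adjusted p = 0.0369), IGHD -3.20 (SE 1.08, adjusted p = 0.0483) and IGKC -2.58 (SE 0.60, adjusted p = 0.0079). IGKC went from 2003 CPM in CON to 198, 196 and 563 in BTZ. With mitochondrial genes left out, the same 3 differences were -1.95, -2.40 and -1.73, and none passed the threshold. The median of all genes moved from -0.69 to -0.14 with that scaling. JEKO-1 had 1 CON library, with 1.91% mitochondrial transcripts. In limma no member passed in MINO-P (0.236% of all genes called), MINO-VR (0.2%) or Z138 (1.66%). At an unadjusted p under 0.05, IGKC in MINO-P and IGHD and IGLC3 in Z138 were counted. Of all genes, 7.92% were so counted in MINO-P and 14.4% in Z138. IGKC in MINO-P (3.01, adjusted p = 0.103) was called higher under 6 of 8 alternatives, among them mitochondrial genes left out (3.09, adjusted p = 0.0341), on a CON listed at 0. With the Z138 letter as a block, IGHD (-4.28) and IGLC3 (-5.14) in Z138 passed, and in IBR against CON IGHD (-4.63).

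Whether the BTZ response differed between the lines was asked with an F-test in limma. No member passed it (0.115% of all genes called), with IGKC closest at an unadjusted p of 0.000138 and an adjusted p of 0.0624. IGKC in BTZ was 7.08 CPM in MINO-P, where CON was listed at 0, so this rests in part on a gene near 0 in that line. IGKC was also the 1 member with an unadjusted p under 0.05, which 2470 of 16498 genes had. Without JEKO-1 BTZ replicate 3, IGKC and IGLC1 passed (adjusted p = 0.00509 and 0.0473).

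**Figure D3:**
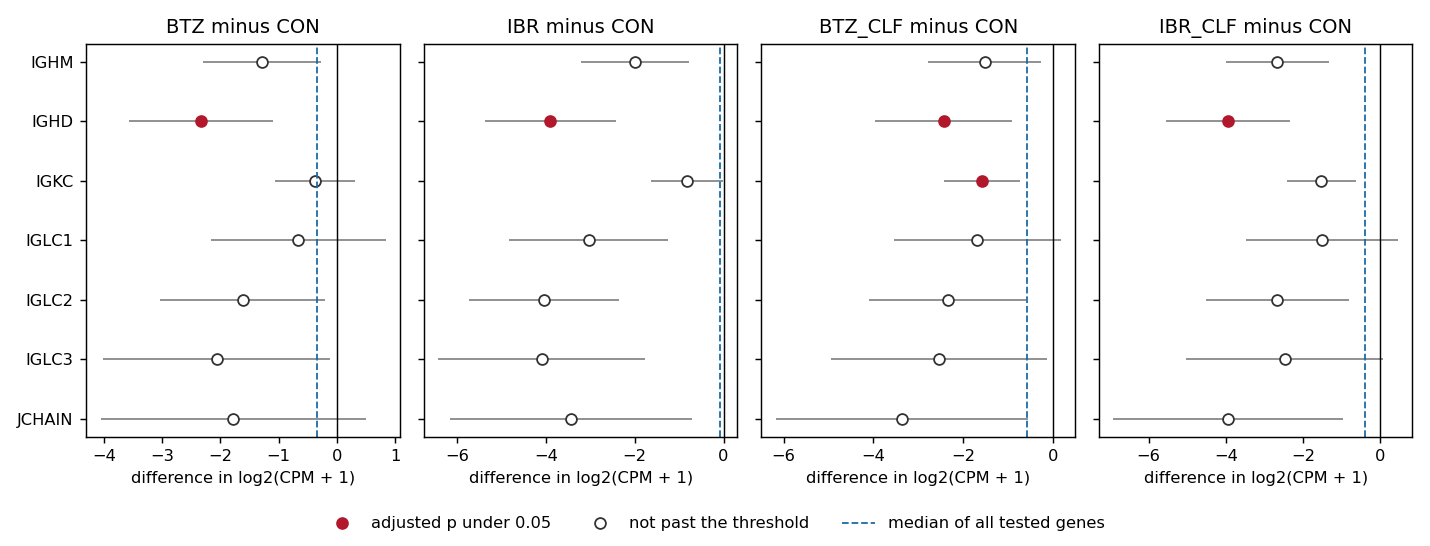
Difference from CON in log2(CPM + 1) (horizontal axis, with 95% intervals) of the 7 transcripts under BTZ, IBR, BTZ_CLF and IBR_CLF. Filled red points passed an adjusted p of 0.05 and the blue dashed line is the median of all tested genes. IGHD is filled in all 4 panels, IGKC under BTZ_CLF as well.

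IBR against CON was compared in JEKO-1 and Z138, where both belonged to the same library series. IGHD in JEKO-1 was 100.4 CPM in CON and 7.48, 5.82 and 15.7 in IBR. In Z138 it was 406 and 389 in CON and 22.1 and 10.3 in IBR. The IBR libraries lay below CON in both lines without overlap, and how many of all genes did so was not counted. The mean difference of -3.90 (SE 0.70, adjusted p = 0.0411) was the 1 member call, against 0.0849% of all genes called lower. In the MINO cultures, IBR libraries belonged to the MCL series of names and CON to the HK series, so they are given side by side without comparison: IGHD was 12.4, 17.0 and 98.7 CPM in MINO-P IBR beside 94.4 in CON, and 5.19, 12.5 and 26.2 in MINO-VR IBR beside 143 in CON.

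The other members had negative differences in these lines that did not pass, although all 7 had an unadjusted p under 0.05, as did 13.5% of all genes. IGLC2 had a difference of -4.05 (SE 0.80, adjusted p = 0.0593), with 130 CPM in JEKO-1 CON and 4.53, 5.17 and 1.60 in IBR, and with 205 and 258 CPM in Z138 CON and 49.7 and 14.7 in IBR. IGHM had -2.00 (SE 0.57, adjusted p = 0.129): 4625 CPM in JEKO-1 CON and 1689, 1758 and 2590 in IBR, and 3768 and 3011 in Z138 CON and 576 and 367 in IBR. IGLC3 had -4.10, IGLC1 -3.04, JCHAIN -3.44 and IGKC -0.82, the smallest of the 7. With each of the 56 libraries as a separate sample 6 of the 7 members passed, and with mitochondrial genes left out or median-of-ratios size factors none did, the IGHD difference being -3.77 and -3.72. Without JEKO-1 CON, JEKO-1 IBR replicate 3, or any of the 4 Z138 CON and IBR libraries, the IGHD call was lost as well, its difference staying between -4.63 and -3.64. The value without JEKO-1 CON, -4.63, is that of Z138 alone. Within JEKO-1 (0.0606% of all genes called) and within Z138 (0.103%) no member passed. The limma F-test of the difference between these lines called no member either (0.0121% of all genes called). In it IGLC1 was the 1 member with an unadjusted p under 0.05, which 661 of 16498 genes had. Within lines, at an unadjusted p under 0.05, IGHD, IGLC2 and IGLC3 were counted in both lines, IGHM in Z138, and IGLC1 and JCHAIN in JEKO-1. Of all genes, 7.76% were so counted in JEKO-1 and 10.1% in Z138.

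**Figure D4:**
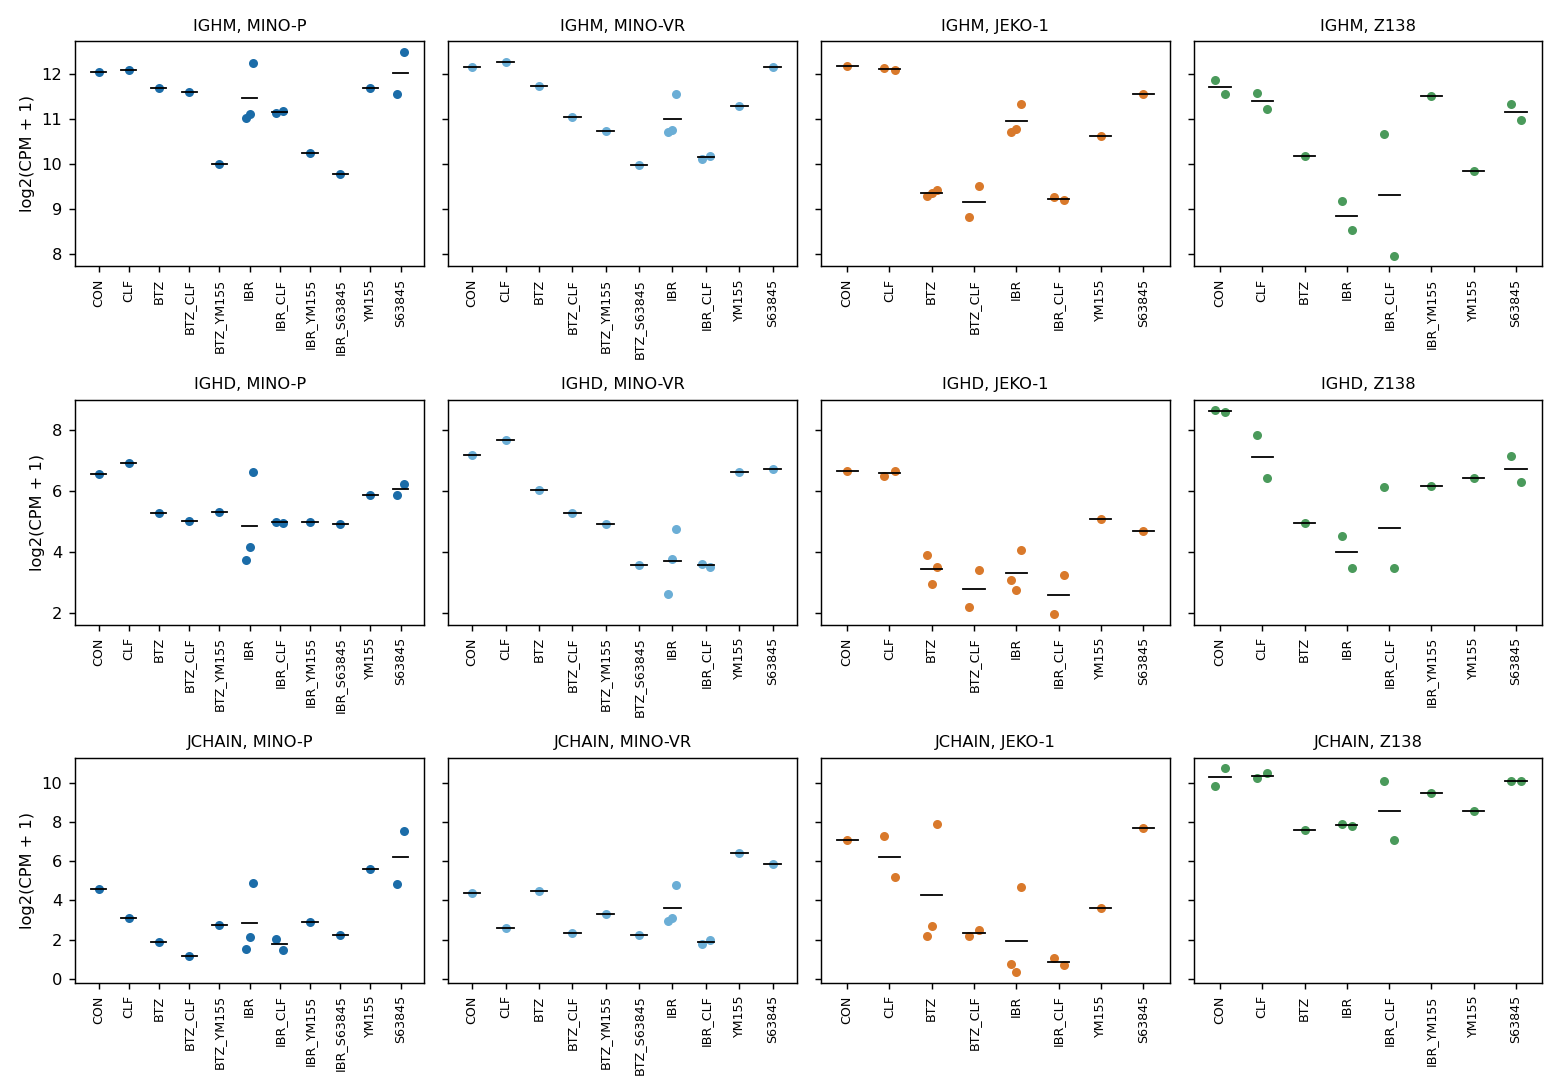
IGHM, IGHD and JCHAIN in log2(CPM + 1) (vertical axes) by treatment (horizontal axes) in each line, 1 point per library and a black bar at the mean. IGHD under IBR is far below CON in JEKO-1 and Z138, and JCHAIN varies most between libraries of 1 treatment in JEKO-1.

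A ratio to IGHM is the same under any scaling of a library. IGHD was 10.8% and 12.9% of IGHM in Z138 CON and 3.83% and 2.80% in IBR. In JEKO-1 it was 2.17% in CON and 0.443%, 0.331% and 0.606% in IBR. The mean log2 difference of IBR from CON over both lines was -2.01, with an exact two-sided permutation p of 0.0556 within lines, the smallest value that 18 arrangements allow, and 0.222 after adjustment over the 4 ratios tested. These ratios were chosen after their values were seen. Low IGHD ratios in Z138 were not confined to IBR. Over its 13 libraries the median was 4.10% and the lowest 2.41%, in IBR_YM155, and BTZ had 30.2 CPM of IGHD beside 1150 of IGHM. Over the 15 JEKO-1 libraries the median was 1.34% and the lowest 0.331%, in IBR. IGKC in Z138 was 11.2% and 10.1% of IGHM in CON and 53.6% and 56.4% in IBR, its own level being 424 and 303 CPM in CON and 309 and 207 in IBR. In JEKO-1 IGKC was 43.3% in CON and 54.0%, 52.7% and 34.4% in IBR, so the exact permutation p over both lines was 0.222 (adjusted 0.444).

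**Figure D5:**
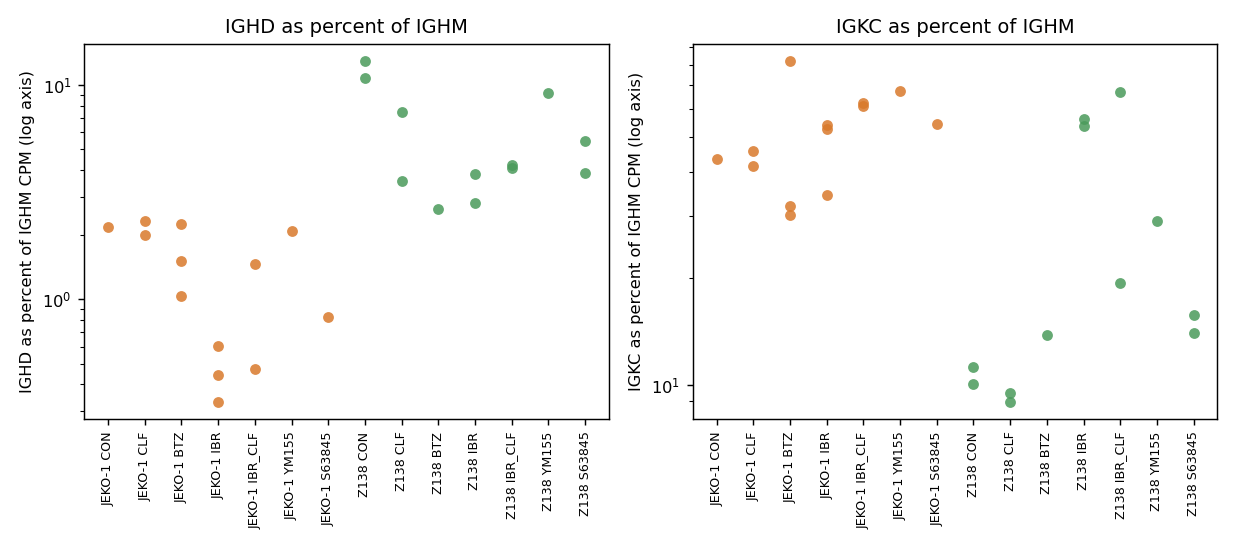
IGHD (left) and IGKC (right) as percent of IGHM CPM (log axes) by treatment in JEKO-1 and Z138, 1 point per library. IGHD is lower relative to IGHM in IBR than in CON in both lines, while IGKC relative to IGHM is higher in Z138 IBR than in Z138 CON.

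The combinations with CLF share their CON libraries with the comparisons above. BTZ_CLF against CON, in the MINO cultures and JEKO-1, had 2 members lower past the threshold, where 13.1% of all genes were called lower: IGHD -2.44 (SE 0.72, adjusted p = 0.0349) and IGKC -1.59 (SE 0.40, adjusted p = 0.0178). IGHD had 31.3 CPM in MINO-P, 38.1 in MINO-VR and 3.55 and 9.73 in JEKO-1 BTZ_CLF. IGKC was listed at 0 in MINO-P CON and BTZ_CLF and was 1.69 and 0.200 CPM in MINO-VR CON and BTZ_CLF. In JEKO-1 it was 2003 CPM in CON and 125 and 215 in BTZ_CLF. Its mean difference thus rests on JEKO-1 and on values near 0 in MINO-VR. Within JEKO-1, IGHM (-3.01), IGHD (-3.86), IGKC (-3.60) and IGLC1 (-4.83) fell, with 21.1% of all genes called lower. With mitochondrial genes left out these were -1.09, -2.13, -1.69 and -4.72, with size factors -0.91, -1.94, -1.51 and -4.39, and none passed under either. Without JEKO-1 BTZ_CLF replicate 1, IGHM (-2.67), IGHD (-3.24) and IGLC1 (-4.75) did not pass. These JEKO-1 libraries had 80.5% and 65.5% mitochondrial transcripts. With mitochondrial genes left out, the differences over lines were -1.84 for IGHD and -0.96 for IGKC, and no member passed, the median of all genes moving from -0.58 to -0.15. Calls over all genes moved from 182 higher and 2154 lower to 306 and 596, and within JEKO-1 from 55 and 3480 to 58 and 6. Without JEKO-1 CON, which left only the MINO cultures in the average, the IGKC difference was -0.58 and IGHD was -1.72, and neither passed. Within MINO-P (0.321% of all genes called) and MINO-VR (0.37%) no member passed in limma. At an unadjusted p under 0.05 it was 0 of 7 in either, against 8.59% and 7.66% of all genes.

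IBR_CLF against CON, in JEKO-1 and Z138, called IGHD alone (-3.95, SE 0.76, adjusted p = 0.0379), with 0.63% of all genes called lower. IGHD was 2.89 and 8.55 CPM in JEKO-1 and 68.9 and 10.1 in Z138. The Z138 pair differed widely in other members too: IGHM was 1636 and 246 CPM, and JCHAIN 1071 and 133. Left out in turn, Z138 IBR_CLF replicate 2 or either Z138 CON library ended this call. So did JEKO-1 CON, without which only Z138 remained. With the mitochondrial genes left out IGHD was -3.37 (adjusted p = 0.0763), and calls over all genes moved from 21 higher and 104 lower to 85 and 5.

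Under CLF alone IGHM was 4381 CPM in MINO-P, 4966 in MINO-VR, 4488 and 4387 in JEKO-1 and 3041 and 2397 in Z138. IGHD in Z138 was 227 and 85.5 CPM, below both CON libraries, and in JEKO-1 89.1 and 101. It was above CON in MINO-P (121 against 94.4) and MINO-VR (201 against 143). No member passed in CLF against CON, in BTZ_CLF against BTZ, in YM155 against CON or in IBR_YM155 against IBR, and in each of these 0% of all genes were called by limma. The unadjusted p was under 0.05 for no member in CLF, for IGKC in BTZ_CLF against BTZ and in IBR_YM155 against IBR, and for IGHM, IGHD, IGLC2 and IGLC3 in YM155, where 10.3% of all genes had one. The share of all genes was 0.497% in CLF, 0.739% in BTZ_CLF against BTZ and 2.78% in IBR_YM155 against IBR. Differences ran from -0.99 (JCHAIN) to -0.05 (IGHM and IGLC1) in CLF and from -1.89 (JCHAIN) to -0.32 (IGHM) in BTZ_CLF against BTZ. In IBR_YM155 against IBR the means over MINO-P and Z138 ran from 0.16 (IGLC3) to 1.00 (IGKC). These lines moved in opposite directions. IGHM was 2096, 2226 and 4836 CPM in MINO-P IBR and 1211 in IBR_YM155, but 576 and 367 in Z138 IBR and 2915 in IBR_YM155. IGLC2 went from 492, 423 and 1077 to 251 CPM in MINO-P and from 49.7 and 14.7 to 217 in Z138. IGKC was listed at 0 in MINO-P under both treatments. YM155 differences were -1.71 for IGHM, -1.90 for IGHD, -3.52 for IGLC2, -4.63 for IGLC3, -2.58 for JCHAIN, -1.75 for IGLC1 and -0.66 for IGKC, with 1 YM155 library in each of JEKO-1 and Z138, the lines compared.

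S63845 against CON in JEKO-1 and Z138 called no member (0.0849% of all genes called). IGHD at -1.94 was the 1 member with an unadjusted p under 0.05, which 5.29% of all genes had. The other members ran from -1.51 (IGLC3) to 0.20 (JCHAIN). BTZ_YM155 against YM155 in the MINO cultures called none (0.352% of all genes), with differences from -2.96 (JCHAIN) to 0 (IGLC1). No member had an unadjusted p under 0.05 there, which 11.3% of all genes had. IBR_CLF against IBR in 4 lines called none either (0.0606% of all genes), with differences from -1.15 (JCHAIN) to 0.77 (IGLC1). Within lines that comparison called 1.69% of all genes in JEKO-1 and 0% in each of the other 3, and no member. IGKC in JEKO-1 was the 1 member with an unadjusted p under 0.05, which 21.7% of all genes had in that line. The F-test for a difference of IBR_CLF against IBR between lines called no member (0.0606% of all genes called).

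Genes of the same biology were read from lists beside the members in BTZ against CON, where 11.7% of all genes were called lower and 1.55% higher. Of 20 plasma cell and secretion genes, 6 fell and 1 rose. DERL3, which helps to export misfolded proteins from the endoplasmic reticulum, changed by -2.62 and MZB1, a chaperone of IgM assembly, by -2.51, while the surface receptor SLAMF7 rose by 2.76. Of 20 transcription factors of immunoglobulin genes, 4 fell and none rose, led by SPIB (-2.94), PAX5 (-2.75), the B cell identity factor, and TCF3 (-1.90). Of 7 receptor partners, 4 fell: PIGR, which carries polymeric antibody across epithelia (-2.42), VPREB3 (-2.35), CD79A, a signalling chain of the B cell receptor (-2.05), and CD79B.

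Of 13 tested recombination and switching genes 5 fell, among them the exonuclease EXO1 (-2.34) and UNG, a uracil-removing repair enzyme (-2.00). Of 11 tested genes among the other constant and related ones, IGLC6 (-3.52) and IGLC7 (-2.88) fell. The list medians were -0.87, -1.19, -2.03, -0.84 and -0.89 in this order, against -0.35 over all genes. In IBR against CON none of these lists had a call except IGHE, which fell by 1.73, and the list medians were 0.01, -0.96, -1.01, -0.90 and -1.50 against -0.07 over all genes. With mitochondrial genes left out, 6, 3, 3, 4 and 2 genes of the lists were called lower in BTZ and none higher, against 6.23% of all genes lower and 2.06% higher, SLAMF7, VPREB3 and, in IBR, IGHE no longer passing. With size factors the counts lower were 6, 3, 2, 4 and 2, without CD79B, and 1 transcription factor, BCL6, was called higher, against 5% of all genes lower and 3.29% higher.

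The genes whose levels followed IGHM most closely over the 56 libraries, after each line's mean was removed and libraries were scaled without mitochondrial genes, were CCND1 (Pearson r = 0.84), DTX1 (0.82), C1QBP (0.80), IGHD (0.79) and ATP5F1A (0.78), out of 17203 genes. Those closest to JCHAIN were RB1 (0.84), ELAPOR1 (0.83), RCSD1 (0.83), PIK3AP1 (0.83) and BRI3BP (0.82). IGHM and JCHAIN correlated with each other at 0.51. The libraries share treatments and library series, so these are descriptions with no p.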

How the data were processed

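The values are gene-level expression from poly-A RNA-seq (TruSeq v2) of 56 cell line libraries. The authors deposited log2 values of CPM (counts scaled to library size) plus 1, made with Partek on hg38 per the submitters' processing notes. The aligner, counter, annotation release and strand use were not given in the sources used here. That the scaled unit is CPM was read from the column sums, and low values lay in steps that gave the depth. Between 68.9% and 88.0% of low values were whole reads (tolerance 0.05 read), so no count model was fitted.

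Groups are line and treatment as labelled, and replicate numbers only name libraries, since the labels give none. Libraries of MINO and JEKO-1 with names that a final a alone sets apart were averaged, because the 8 such pairs lay closer to each other than other pairs of a group in these lines (chi-square per degree of freedom 4.24 to 44.8 against 115 to 864). The 5 Z138 pairs that a final A sets apart, at 67.0 to 322, were not averaged. The averaging left 48 samples and 11 residual degrees of freedom. The test was limma 3.58.1 (R 4.3.3) with a trend on log2(CPM + 1), over genes with at least 1 CPM in at least 2 libraries, with Benjamini-Hochberg adjustment over all of them and a threshold of 0.05. The scripts were tested on simulated data. Contrasts average lines that hold both groups in the same library series. Leaving out the only library of a group therefore drops that line from the average, or that treatment in differences between lines. A fold on this scale understates the change of low genes, the 95% intervals are limma's, from the spread between samples, and the floors of 3 reads cover counting error only.

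The members and lists were chosen with earlier results of these data known. The planned count test did not apply to this unit. The rule named all members in every comparison, given as values or as the range of their differences, and from each list the counts and up to 3 called genes with the largest change. Alternatives were another scaling, filter, pseudocount, unit of replication, model and leaving out each library, and 2 were chosen after seeing the data: leaving out libraries over 50% mitochondrial, and 56 separate libraries scaled without mitochondrial genes. RAG2 and IGLC4 were not analysed here, and 1 gene that the rule would name is not reported here. Exon lengths and sequences came from the GENCODE annotation of GRCh38.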

Additional observations from a re-analysis of the deposited data

Results flagged for a closer look

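In BTZ against CON, some members moved in opposite directions in different lines, with no overlap between libraries, in groups of 1 to 3 libraries. In each MINO culture CON and BTZ were 1 library each, so any unequal values there have no overlap. How many of all genes moved in opposite directions was not counted. IGKC was higher in MINO-P (from 0 to 7.08 CPM) and lower in the other lines, a difference on the log2(CPM + 1) scale of 3.79 from MINO-VR, 5.60 from JEKO-1 and 4.19 from Z138. IGLC1 was higher in MINO-P, at 0.263 CPM against 0, and lower in MINO-VR (a difference of 0.55) and in Z138 (1.39). The IGLC1 values were 4.46 reads in MINO-P BTZ and 3.46 in MINO-VR CON, near the floor of 3 reads. JCHAIN was slightly higher in MINO-VR, at 21.5 against 19.5 CPM, and lower in MINO-P (a difference of 2.82) and Z138 (2.81). In IBR_CLF against IBR, IGLC3 was higher in JEKO-1 and lower in MINO-P, a difference of 3.56. These pairs of lines were not tested against each other, and IBR_YM155 against IBR was not searched for such pairs. The F-tests over all lines had adjusted p-values in limma of 0.0624 for IGKC, 1 for IGLC1 and JCHAIN and 0.978 for IGLC3.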

How the results depend on the processing

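No member called in the report or under an alternative had the opposite sign in the other. The count of members called between lines, 15, moved by less than 1.5 times under each alternative. The counts within treatments were not stable. In BTZ against CON, 1 member was called, and 4 with 56 separate libraries or the additive model, 3 with the final letter of Z138 as a block, and 0 without JEKO-1 or with size factors, with 0 to 2 when single libraries were left out. Genes called lower in BTZ were 18.5% of all genes with 56 separate libraries, 22.3% with the additive model and 12.3% with the Z138 block. They were 2.87% without JEKO-1 and 5% with size factors. In IBR against CON, 1 was called, 6 with 56 separate libraries (also with mitochondrial genes left out), 4 with the additive model, 3 with the Z138 block, and 0 without JEKO-1, without mitochondrial genes or with size factors, with 0 to 1 when single libraries were left out. Genes called lower in IBR were 2.98% of all genes with 56 separate libraries, and 2.03% with mitochondrial genes also left out. They were 3.89% with the additive model and 0.133% with the Z138 block. Over all 11 treatment comparisons, 5 were called, and 23, 20, 12, 0, 1, 12 and 0 under 56 separate libraries, the additive model, the Z138 block, JEKO-1 left out, mitochondrial genes left out, that with 56 separate libraries, and size factors, with 0 (without JEKO-1 CON) to 16 (without JEKO-1 BTZ replicate 3) on leaving out libraries. Within lines, 7 were called, all lower, and 21, 12, 1 (IGKC in MINO-P BTZ, higher), 12, 3 and 0 under 56 separate libraries, the Z138 block, mitochondrial genes left out, that with 56 separate libraries, no filter and size factors, with 4 (without JEKO-1 BTZ_CLF replicate 1 or either Z138 CON library) to 13 (without JEKO-1 BTZ replicate 3) on leaving out libraries. Members whose response differed between lines went from 0 to 1 under 56 separate libraries, the Z138 block, mitochondrial genes left out with or without 56 separate libraries, and no filter, and to between 0 and 2 on leaving out libraries, 2 being without JEKO-1 BTZ replicate 3. For the counts over several comparisons, the share of all genes was not summed.

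Added after seeing the data, leaving out the 6 libraries over 50% mitochondrial gave 4 members in IBR against CON and 1 in BTZ against CON, and ended the calls in BTZ_CLF and IBR_CLF against CON. Those 6 hold every JEKO-1 BTZ_CLF and IBR_CLF library, so JEKO-1 dropped out of these comparisons. BTZ_CLF against CON was then left with the MINO cultures, and IBR_CLF against CON with Z138. With those 6 libraries left out, 4.25% of all genes were called lower in IBR against CON and 20.1% in BTZ against CON. With IGLL5 and IGLC5 to IGLC7 counted as lambda, kappa in JEKO-1 was 86.3% in place of 93.2%. A lone CON library in JEKO-1 and in each MINO culture limits every contrast with CON, and the lone sample is assumed to vary like the other groups.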
